A study of Mus musculus with 9 samples.

Results

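Endothelial genes were used as a measure of how much vessel RNA each dissection of the E10.5 mouse head and body carried. They are genes used chiefly by the cells that line blood vessels: the VEGF receptor genes *Flt1*, *Kdr* and *Flt4*, the angiopoietin receptor family genes *Tek* and *Tie1*, the co-receptor gene *Eng*, the junction genes *Pecam1* and *Esam*, the sialomucin gene *Emcn* and the secreted factor gene *Egfl7*. Every probe listed under 1 of these 10 symbols was taken. The array listed 9 of them, with 14 of its 25697 probes (18120 symbols in all). *Esam* was not listed under its present symbol. Its older symbol, *Esam1*, was, and that probe is described on its own and is in none of the counts.

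The samples were 9 RNA pools from E10.5 embryos of the outbred CD-1 strain, for which the labels name no allele and no agent, each hybridized to an array of its own. The groups were 3 pools of otic vesicle (OV), the closed epithelial sac from which the inner ear forms, 3 of periotic tissue, which is the mesenchyme and hindbrain around the vesicle, and 3 of embryo-minus-otic, the whole embryos without the greater otic region. Embryos of 3 litters were dissected by forceps and no cell type was sorted, so each pool holds whatever vessels and blood came with its tissue. The text of the methods does not say whether a pool was a litter, and p-values therefore measure the spread between pools.

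Vessels of the embryo grow when VEGF ligands bind the VEGF receptors on endothelial cells. *Kdr* encodes the main signalling receptor for VEGF-A, *Flt1* encodes a receptor that binds VEGF-A tightly and limits its action, and *Flt4* encodes the VEGF-C receptor of lymphatic and sprouting endothelium. Angiopoietins act through *Tek* (Tie2), with *Tie1* as its partner, and steady the vessel wall once it has formed. The otic vesicle is an epithelium without vessels inside it, and vessels run through the mesenchyme around it.

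Each value below is a normalized log2 intensity. Deposited signals were put on the log2 scale and quantile normalized across arrays, one model of the 3 groups was fitted to all probes with limma, and *q* is the p-value adjusted over all 25697 probes by the Benjamini-Hochberg method. A probe was called where *q* was under 0.05, and its signal passed background where the detection p-value of that array was under 0.01. Each array had 43.9% to 47.3% of all probes above background. All 8 probes for otic epithelium genes were higher in OV than in either other group, and 6 of 9 probes for neural tube genes were higher in periotic tissue than in embryo-minus-otic. Of 10 probes for mesenchyme genes, which periotic tissue should also hold, 8 were lower in periotic tissue than in embryo-minus-otic and 1 was higher in it than in OV. OV pool 1 stood apart from the other OV pools in several heart muscle genes. It was also the highest of them in the means of the member and erythroid probes, as given below. *Myl4*, a heart muscle gene, was at 7.65 in it against 5.88 and 5.73 in the other OV pools, beside 11.84, 11.55 and 11.69 in embryo-minus-otic. The counts of called probes that use OV, and the values that changed most, are therefore also given without this pool, for the gene lists as an alternative chosen after the data were seen.

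Of the 14 member probes, 7 (for 6 genes) were above background on all 9 arrays, 9 (for 7 genes) were so on the 3 arrays of 1 group or more, and 4 (for *Egfl7*, *Flt1* and *Flt4*) were above background on none. Levels are compared between groups within a probe and not between genes, since probes differ in how brightly they hybridize, and "brighter" only tells the probes of a gene apart. The plot of all member probes by array shows the levels that the next paragraphs describe.

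**Figure D1:**
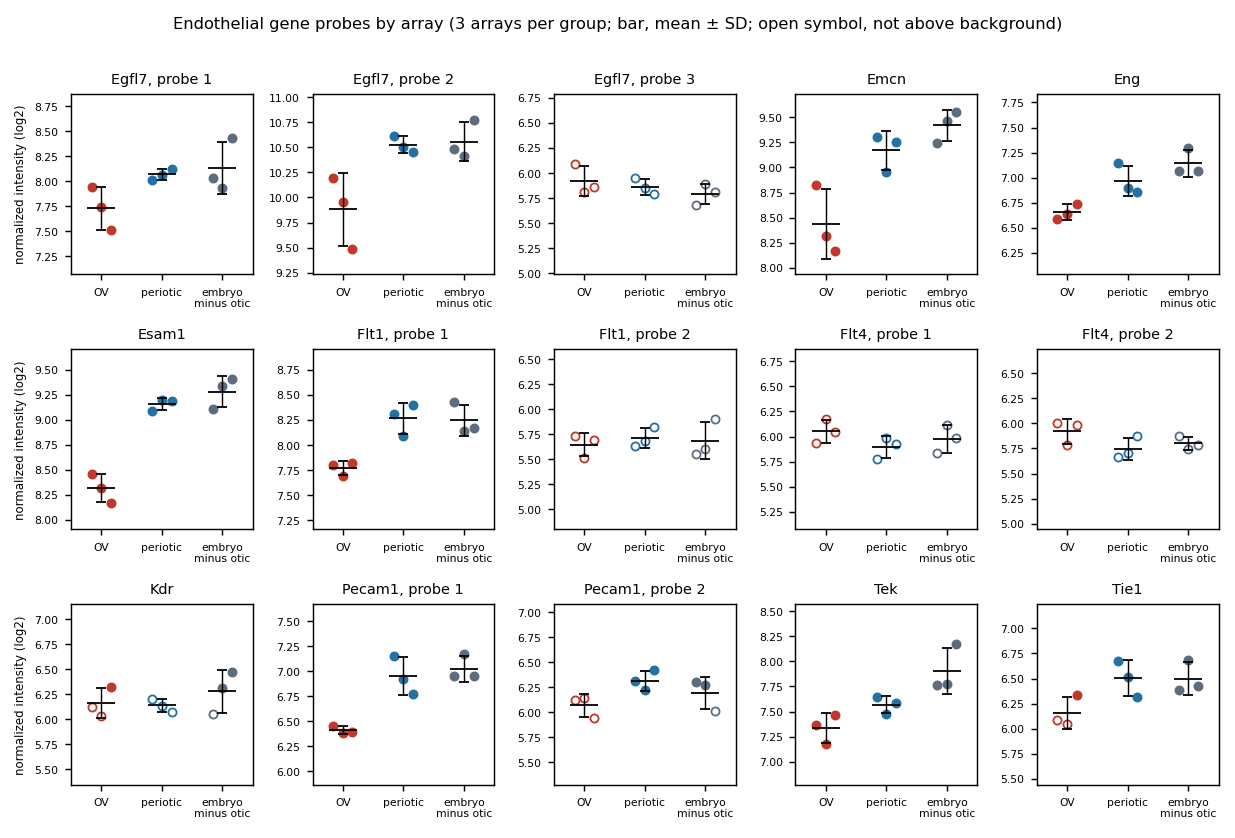
Normalized log2 intensity (y axis) of each member probe and of *Esam1* on the 9 arrays, in 3 groups of 3 (x axis); bars give the mean ± SD and open symbols mark arrays on which the probe was not above background. The OV points of *Emcn*, *Esam1*, *Flt1* probe 1, *Egfl7* probe 2 and *Pecam1* probe 1 lie below all points of the other groups, while *Flt4*, *Flt1* probe 2 and *Egfl7* probe 3 are open on every array.

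Because the members belong to vessels and several of them were lower in OV together, the 250 bases before their start sites are shown for the genes whose results are described most fully. They come from RefSeq on build GRCm38.p6 and are read in the direction of the gene: *Emcn* at chr3:137340828-137341077 on the plus strand, *Egfl7* (the first of 3 start sites) at chr2:26580833-26581082 on the plus strand, *Tek* at chr4:94739039-94739288 on the plus strand, *Flt1* at chr5:147726012-147726261 on the minus strand and *Eng* at chr2:32646345-32646594 on the plus strand. Capitals mark matches of CNGGAA on either strand, a pattern chosen here to look for sites of ETS factors, a family that acts in endothelial cells. The pattern does not cover every sequence these factors may bind, and GGAA after other letters was left in lower case.
*Emcn*: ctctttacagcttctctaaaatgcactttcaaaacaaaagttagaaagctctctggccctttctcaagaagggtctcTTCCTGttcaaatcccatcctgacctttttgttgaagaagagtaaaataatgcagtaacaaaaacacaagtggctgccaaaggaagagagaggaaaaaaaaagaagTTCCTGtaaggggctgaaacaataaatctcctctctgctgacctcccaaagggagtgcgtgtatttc
*Egfl7*: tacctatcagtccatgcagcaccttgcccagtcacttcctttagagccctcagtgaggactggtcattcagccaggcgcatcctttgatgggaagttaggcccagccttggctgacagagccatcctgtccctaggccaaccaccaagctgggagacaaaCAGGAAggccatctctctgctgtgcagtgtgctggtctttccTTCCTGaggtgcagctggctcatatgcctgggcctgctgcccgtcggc
*Tek*: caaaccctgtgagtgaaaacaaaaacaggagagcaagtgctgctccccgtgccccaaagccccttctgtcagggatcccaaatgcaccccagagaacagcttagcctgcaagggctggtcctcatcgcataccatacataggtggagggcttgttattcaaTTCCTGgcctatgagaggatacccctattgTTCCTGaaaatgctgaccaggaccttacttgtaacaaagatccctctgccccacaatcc
*Flt1*: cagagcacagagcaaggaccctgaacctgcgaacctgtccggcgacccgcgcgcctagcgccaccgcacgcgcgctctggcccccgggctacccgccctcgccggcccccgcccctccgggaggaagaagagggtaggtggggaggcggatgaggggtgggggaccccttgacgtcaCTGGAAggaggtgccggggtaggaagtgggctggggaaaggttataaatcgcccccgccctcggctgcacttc
*Eng*: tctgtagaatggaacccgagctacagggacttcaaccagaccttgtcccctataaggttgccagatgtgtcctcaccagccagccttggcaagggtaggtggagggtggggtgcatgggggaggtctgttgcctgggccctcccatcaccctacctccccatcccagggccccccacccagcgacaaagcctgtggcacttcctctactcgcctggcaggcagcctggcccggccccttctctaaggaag
Matches lay 173 and 67 bases before the *Emcn* start site, 90 and 48 before that of *Egfl7*, 89 and 59 before that of *Tek* and 73 before that of *Flt1*, counted to the base of the match farthest from the start site. No match of this pattern lay in the *Eng* window, although GGAA after other letters occurs there and in the *Emcn*, *Egfl7* and *Flt1* windows. Counting every start site, 10 windows of *Egfl7*, *Emcn*, *Eng*, *Flt1*, *Flt4*, *Kdr*, *Tek* and *Tie1* were found. At least 1 match lay in 8 of them, against 54.2% of all 32851 windows, and at least 2 matches in 6 of them, against 19.9%. The *Tie1* window alone among the 10 held 3 matches (5.91% of all windows hold at least 3). The GATA core AGATAA and the forkhead core GTAAACA were in none of these windows, against 9.99% and 3.17% of all windows. These are matches of letters and not sites shown to be bound. *Pecam1* and *Esam* had no entry.

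The OV was set against periotic tissue to ask how much less vessel RNA the vesicle itself carried than the tissue around it. Of the 14 member probes, 4 were called lower in OV, those of *Emcn*, *Egfl7*, *Flt1* and *Pecam1*, and none of the called probes was higher. Their differences ran from -0.73 for *Emcn* to -0.50 for *Flt1*. Over all probes, 5.15% were called lower in OV than in periotic tissue and 5.07% higher. The median difference of the 14 probes was -0.28, beside -3.7e-05 over all probes. In a bulk sample, fewer endothelial cells and less RNA of these genes in each such cell cannot be told apart.

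Against embryo-minus-otic, the same OV pools had 6 of 14 member probes called lower: the 4 above, *Eng* and *Tek*. Over all probes, 5.51% were called lower in OV than in embryo-minus-otic and 5.89% higher. The median difference of the 14 probes was -0.37, beside 0.0043 over all probes. Both comparisons use the same OV arrays and are given side by side, not as separate support for each other. Every OV array was below every periotic array for 8 of the 14 probes and below every embryo-minus-otic array for 7 of them, against 12.8% and 11.8% of all probes. Median normalization in place of quantile normalization left 2 probes called against periotic tissue (*Flt1*, *Pecam1*) and 1 against embryo-minus-otic (*Pecam1*). A test against a 1.5-fold change called none in either comparison, where 0 and 1 of the 14 probes had an unadjusted p under 0.05 in that limma test.

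Without OV pool 1 the same 4 probes were called against periotic tissue, and 7 were called against embryo-minus-otic, the added one being a second *Egfl7* probe. The called differences that moved most were those of *Emcn*, at -0.93 and -1.18 without it, and of the called *Egfl7* probe, at -0.80 and -0.84 without it, against periotic tissue and embryo-minus-otic in that order.

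Periotic tissue and embryo-minus-otic, the 2 groups other than OV, gave no call among the 14 probes with limma. At an unadjusted p under 0.05 there was 1, that of *Tek*. Over all probes, 2.95% were called lower in periotic tissue and 2.86% higher. The median difference of the 14 probes was -0.059. Every periotic array was below every embryo-minus-otic array for 1 of the 14 probes, *Tek*, against 9.19% of all probes. No alternative gave a call here.

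**Figure D2:**
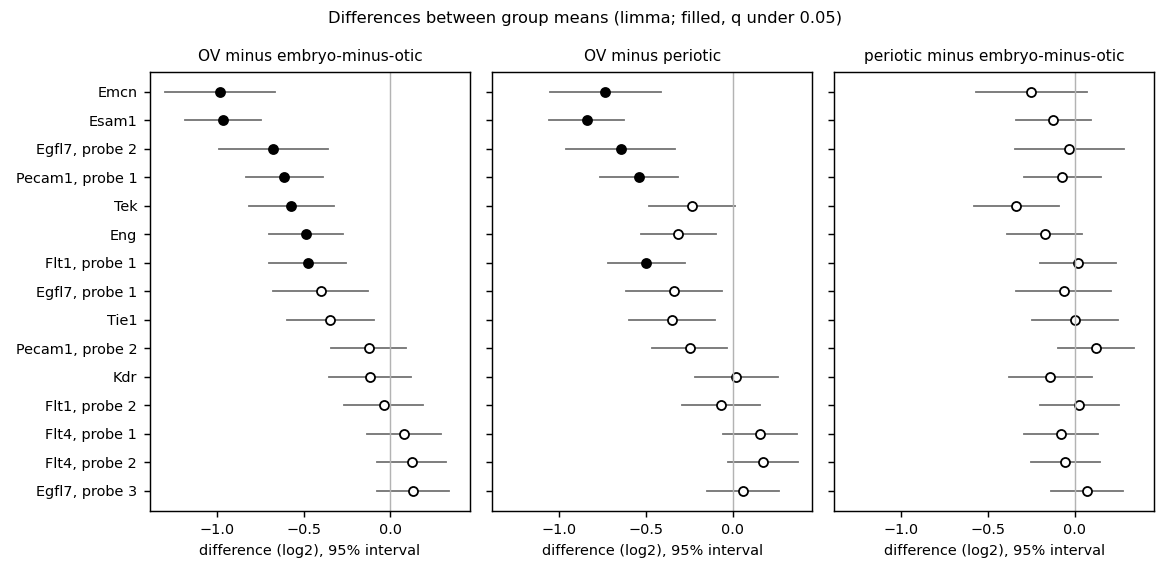
Differences between group means on the log2 scale (x axis) with their 95% intervals from limma, for each member probe and *Esam1* (y axis), in the 3 comparisons; filled points have *q* under 0.05. The filled points all lie below 0 in the panels with OV, and the panel of periotic tissue minus embryo-minus-otic has no filled point.

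*Emcn* encodes endomucin, a sialomucin on the surface of venous and capillary endothelium. It was at 8.83, 8.32 and 8.16 in the OV pools, 9.30, 8.95 and 9.26 in the periotic pools and 9.25, 9.46 and 9.55 in the embryo-minus-otic pools. No OV array reached the lowest array of the other groups, although OV pool 1 lay near the lowest periotic pool. The OV mean was 8.44 ± 0.35 (SD, n = 3), against 9.17 ± 0.19 and 9.42 ± 0.16. The difference was -0.73 ± 0.15 (SE) from periotic tissue (limma, *q* = 0.0035) and -0.98 ± 0.15 from embryo-minus-otic (limma, *q* = 2.69e-04). The OV intensity was therefore 60.2% of the periotic and 50.6% of the embryo-minus-otic intensity. With the neqc background correction these were 57.0% and 47.4%. Periotic tissue and embryo-minus-otic differed by -0.25 with an interval from -0.57 to 0.069 (limma, *q* = 0.477), so the data leave their order unsettled.

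The *Esam1* probe, on chromosome 9, stands for the gene of an adhesion molecule of endothelial tight junctions and platelets. Its levels were 8.45, 8.32 and 8.17 in the OV pools, 9.08, 9.20 and 9.19 in the periotic pools and 9.11, 9.33 and 9.41 in the embryo-minus-otic pools. The OV arrays lay well below all others, and the periotic and embryo-minus-otic arrays overlapped. OV was lower than periotic tissue, at -0.84 ± 0.10 (SE; limma, *q* = 2.59e-05), which is 55.8% of its intensity. It was lower than embryo-minus-otic too, at -0.96 ± 0.10 (limma, *q* = 6.17e-06), or 51.2%. With neqc these percentages were 52.5% and 47.9%. The call of *Esam1* held in both comparisons under the 17 alternatives run for single probes, median normalization included. In the limma test against a 1.5-fold change, added after the data were seen, it did not pass (*q* = 0.447 and 0.0513).

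*Egfl7* encodes a secreted protein that endothelial cells lay down around themselves as they form tubes. It had 3 probes on chromosome 2, annotated to different transcript variants. Probe 2 (ILMN_3163288) was at 10.20, 9.95 and 9.49 in the OV pools, 10.618, 10.501 and 10.457 in the periotic pools and 10.48, 10.41 and 10.78 in the embryo-minus-otic pools. All OV arrays were below all others, and they spread more widely among themselves (SD 0.36) than the periotic arrays did (SD 0.083). OV was lower than both, with a difference of -0.64 ± 0.15 (SE) from periotic tissue (limma, *q* = 0.0083) and of -0.68 ± 0.15 from embryo-minus-otic (limma, *q* = 0.0058), at 64.0% and 62.6% of their intensities. With neqc these percentages were 62.9% and 61.5%. The periotic and embryo-minus-otic means differed by -0.032, with an interval from -0.35 to 0.28.

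Probe 1 of *Egfl7* (ILMN_1215919) was at 7.94, 7.74 and 7.51 in the OV pools, 8.02, 8.06 and 8.13 in the periotic pools and 8.04, 7.93 and 8.43 in the embryo-minus-otic pools. OV lay below periotic tissue on every array but overlapped embryo-minus-otic. Neither difference was called: -0.34, with an interval from -0.61 to -0.063, from periotic tissue (limma, *q* = 0.138) and -0.40, with an interval from -0.68 to -0.13, from embryo-minus-otic (limma, *q* = 0.0590). The second passed under 4 of 17 alternatives and the first under none. These were without OV pool 1 (limma, *q* = 0.0306), without embryo-minus-otic pool 2, with array weights and with only probes above background. Probe 3 (ILMN_2631417) was not above background on any array.

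*Flt1* encodes VEGFR1. Its brighter probe (ILMN_1227926) was at 7.80, 7.69 and 7.82 in the OV pools, 8.31, 8.09 and 8.40 in the periotic pools and 8.42, 8.14 and 8.17 in the embryo-minus-otic pools. The OV arrays sat close together and below all others, and the other 2 groups overlapped. The difference was -0.50 ± 0.10 (SE) from periotic tissue (limma, *q* = 0.0042), at 70.9% of its intensity, and -0.48 ± 0.10 from embryo-minus-otic (limma, *q* = 0.0056), at 71.8%. With neqc these percentages were 66.55% and 67.56%. Periotic tissue and embryo-minus-otic differed by 0.019, with an interval from -0.20 to 0.24. The other *Flt1* probe was above background on no array.

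*Kdr* encodes VEGFR2. Its single probe, on chromosome 5, was above background on 1 OV array, no periotic array and 2 embryo-minus-otic arrays. The levels were 6.12, 6.03 and 6.33 in the OV pools, 6.20, 6.14 and 6.07 in the periotic pools and 6.05, 6.31 and 6.47 in the embryo-minus-otic pools. The groups overlapped in every comparison and none was called, with *q* between 0.637 and 0.965 in limma. OV differed from embryo-minus-otic by -0.12, with an interval from -0.36 to 0.12. A probe this near its background gives little on how *Kdr* itself varied. The 2 probes of *Flt4*, on chromosome 11, were above background on no array, and no level is given for them.

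*Tek* encodes the angiopoietin receptor Tie2. It was at 7.37, 7.17 and 7.46 in the OV pools, 7.64, 7.48 and 7.58 in the periotic pools and 7.77, 7.77 and 8.17 in the embryo-minus-otic pools. It was the member probe with its 3 groups apart on every array, in the order OV, periotic tissue, embryo-minus-otic. OV was lower than embryo-minus-otic, with a difference of -0.57 ± 0.12 (SE; limma, *q* = 0.0033), at 67.3% of its intensity, or 60.8% with neqc. The step from OV to periotic tissue was -0.23, with an interval from -0.48 to 0.012 (limma, *q* = 0.297). The step from periotic tissue to embryo-minus-otic was -0.34, with an interval from -0.58 to -0.090 (limma, *q* = 0.124). Neither neighbouring pair passed the threshold, and so only the ends of the order differed by the test.

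*Tie1*, on chromosome 4, encodes the receptor that pairs with Tie2. Its levels were 6.08, 6.04 and 6.33 in the OV pools, 6.68, 6.52 and 6.32 in the periotic pools and 6.39, 6.69 and 6.43 in the embryo-minus-otic pools. The probe was above background on 1 OV array and on all others. OV overlapped periotic tissue through pool 3 of each and did not overlap embryo-minus-otic. Both differences were -0.35 and missed the threshold (limma, *q* = 0.0782 against periotic tissue and 0.0731 against embryo-minus-otic). Without OV pool 3 both passed (limma, *q* = 0.0390 and 0.0395), as they did with array weights, and the first also passed without periotic pool 3. Periotic tissue and embryo-minus-otic differed by 0.0036, with an interval from -0.24 to 0.25.

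*Eng* encodes endoglin, a co-receptor for TGF-beta family ligands on endothelium. Its levels were 6.58, 6.64 and 6.74 in the OV pools, 7.14, 6.90 and 6.86 in the periotic pools and 7.06, 7.29 and 7.07 in the embryo-minus-otic pools. Every OV array lay below every other array. The difference from embryo-minus-otic was -0.49 ± 0.10 (SE; limma, *q* = 0.004), at 71.4% of its intensity, or 60.2% with neqc. That from periotic tissue was -0.31, with an interval from -0.53 to -0.097, and missed the threshold (limma, *q* = 0.0674). It passed under 2 of 17 alternatives, without embryo-minus-otic pool 2 and with array weights.

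*Pecam1* encodes CD31, an adhesion molecule at the contacts between endothelial cells that platelets and white blood cells also carry. The brighter probe (ILMN_2700982) was at 6.46, 6.38 and 6.39 in the OV pools, 7.15, 6.92 and 6.78 in the periotic pools and 6.95, 7.17 and 6.95 in the embryo-minus-otic pools. OV showed the tightest spread of the groups (SD 0.039) and no overlap with either. It was lower than both, with a difference of -0.54 ± 0.10 from periotic tissue (SE; limma, *q* = 0.0022) and of -0.61 ± 0.10 from embryo-minus-otic (limma, *q* = 7.55e-04), at 68.8% and 65.4% of their intensities, which were 54.3% and 50.3% with neqc. This was the 1 member probe of the 14 that stayed called in both comparisons under median normalization.

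The other *Pecam1* probe (ILMN_3147074, chromosome 11), annotated to transcript variant 2, was above background on no OV array, all 3 periotic arrays and 2 embryo-minus-otic arrays. With each OV array set no lower than its dimmest above-background value, the periotic mean was 1.08-fold brighter, a figure without allowance for error. The difference of -0.25, with an interval from -0.46 to -0.030, was not called (limma, *q* = 0.179). Its probes therefore differed in whether the test was passed, though both read lower in OV than in periotic tissue on every array.

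The pools of 1 group did not move alike in all members. Over the 7 probes above background on all arrays, OV pool 1 deviated from the OV mean by 0.14 on average and was above it for 6 probes, while OV pools 2 and 3 deviated by -0.045 and -0.091. Periotic pools 1, 2 and 3 deviated by 0.095, -0.087 and -0.0082. Embryo-minus-otic pools 1, 2 and 3 deviated by -0.065, -0.034 and 0.099.

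The ligands and co-receptors that the member receptors bind were taken as a list of 10 genes, 9 of them found, with 15 probes. In OV, 5 of the 15 were called lower than in periotic tissue and 6 lower than in embryo-minus-otic, beside the percentages for all probes given above. Without OV pool 1 these were 4 and 6. Periotic tissue had 2 called lower than embryo-minus-otic, both of them *Nrp1* probes. *Nrp1*, listed under its older symbol *Nrp* on chromosome 8, encodes neuropilin-1, which helps VEGF-A bind VEGFR2 and also serves axon guidance. Its brighter probe was at 7.999, 7.743 and 7.714 in the OV pools, 8.34, 8.49 and 8.56 in the periotic pools and 9.20, 9.32 and 9.29 in the embryo-minus-otic pools. The 3 groups were apart on every array. OV was lower than both, with a difference of -0.64 ± 0.099 from periotic tissue (SE; limma, *q* = 2.8e-04) and of -1.45 ± 0.099 from embryo-minus-otic (limma, *q* = 4.75e-08). Periotic tissue was lower than embryo-minus-otic, at -0.81 (limma, *q* = 6.4e-05) and at -0.88 for the other *Nrp1* probe, a step that was called for no member probe.

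*Angpt2* (listed as *Agpt2*), a ligand of Tie2 that endothelial cells release where vessels are remodelled, was at 6.61, 6.65 and 6.44 in the OV pools, 7.21, 7.40 and 7.30 in the periotic pools and 7.36, 7.40 and 7.33 in the embryo-minus-otic pools. OV lay below all others, and *Angpt2* had the largest called difference of the list against periotic tissue, -0.74 ± 0.089 (SE; limma, *q* = 2.72e-05). Against embryo-minus-otic the difference was -0.80. A second *Angpt2* probe was above background on no array. *Vegfc*, the ligand of VEGFR3, was at 7.91, 7.96 and 7.61 in the OV pools, 8.20, 8.13 and 8.44 in the periotic pools and 8.24, 8.41 and 8.34 in the embryo-minus-otic pools. It was called lower in OV in both comparisons, with differences of -0.43 and -0.50.

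*Vegfa*, the main growth factor for vessels, is made by many tissues rather than by endothelium. The brighter of its probes was at 9.06, 8.93 and 8.85 in the OV pools, 9.43, 9.06 and 9.42 in the periotic pools and 9.45, 9.57 and 9.38 in the embryo-minus-otic pools. It was called lower in OV, with differences of -0.36 (limma, *q* = 0.0487) and -0.52 (limma, *q* = 0.0044), with OV and periotic tissue overlapping at their ends, and the first missed the threshold without OV pool 1 (limma, *q* = 0.0506). A second *Vegfa* probe that was above background on all arrays differed by 0.017 and 0.024 and was not called, so the probes of this gene disagreed. *Figf* (*Vegfd*), on chromosome X, read 0.34 and 0.38 higher in OV and missed the threshold (limma, *q* = 0.104 and 0.0592). *Pgf* and *Nrp2* were above background on no array, and *Angpt1* was not analysed here.

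**Figure D3:**
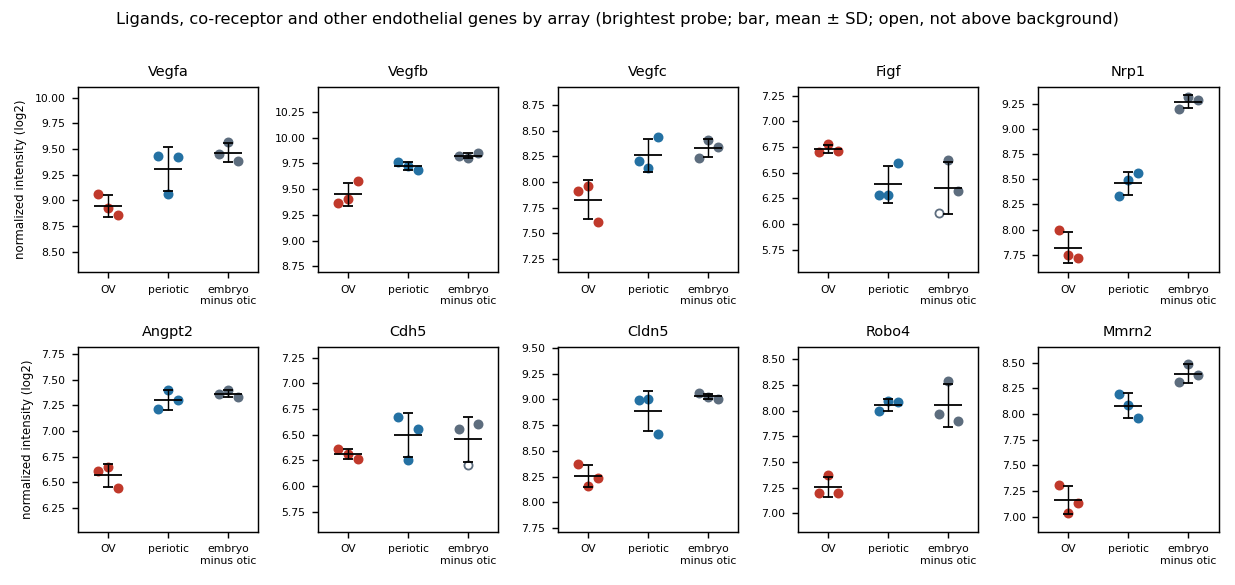
Normalized log2 intensity (y axis) of the brightest probe of 5 ligand and co-receptor genes, of *Angpt2* and of 4 further endothelial genes on the 9 arrays in 3 groups (x axis); bars give the mean ± SD, open symbols are not above background, and *Vegfb*, *Robo4* and *Mmrn2* were picked after their values were seen. *Nrp1* steps up from OV to periotic tissue to embryo-minus-otic, *Angpt2* and *Cldn5* are lower in OV than in both, and *Figf* is the one with its OV points above the others.

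A wider list of 63 endothelial genes, of which 59 were found with 83 probes, covered junction, arterial, venous and lymphatic genes and endothelial transcription factors. It had 26 probes called lower and 4 higher in OV than in periotic tissue, and 31 lower and 4 higher than in embryo-minus-otic. Over all probes the shares were 5.15% lower and 5.07% higher than in periotic tissue, and 5.51% and 5.89% than in embryo-minus-otic. The counts called higher are thus near the share over all probes. The median difference of the 83 probes was -0.20 and -0.17, beside -0.28 and -0.37 for the member probes. Over the probes above background throughout 1 group or more, it was -0.36 and -0.50 for the 49 of the wider list and -0.35 and -0.49 for the 9 of the members. This filter lets probes in through a group in which they are high. Of the 49, 34 were above background on all OV arrays, against 46 in periotic tissue and 46 in embryo-minus-otic. Of the 9 member probes, the numbers were 7, 9 and 8 in that order. The filter thus favours lower values in OV, and these medians are no support for a difference. Without OV pool 1, 24 probes were called lower and 3 higher than in periotic tissue, and 31 and 4 than in embryo-minus-otic. In periotic tissue 10 probes were called lower and 4 higher than in embryo-minus-otic, beside 2.95% and 2.86% of all probes. These shares over all probes also stand beside the counts of the lists below.

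The genes named next had the largest called changes of the wider list. *Notch4*, a Notch receptor of endothelium, was at 7.71, 7.94 and 7.73 in the OV pools, 9.12, 9.49 and 9.06 in the periotic pools and 9.02, 9.11 and 8.95 in the embryo-minus-otic pools. Its difference from periotic tissue was -1.43 ± 0.11 (SE; limma, *q* = 2.45e-07), and its second probe was above background on 1 array only. *Gja5*, which encodes the arterial gap junction protein connexin 40 that heart muscle also makes, was at 6.55, 6.21 and 6.32 in the OV pools, 6.64, 7.02 and 7.26 in the periotic pools and 8.24, 7.65 and 8.15 in the embryo-minus-otic pools. It was lower in OV than in embryo-minus-otic, with a difference of -1.66 ± 0.16 (limma, *q* = 2.80e-06). Of its other probes, 1 was also called lower, at -0.63 (limma, *q* = 0.0085), and 1 was not called, at -0.077 (limma, *q* = 0.72).

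In the other direction, *Hey1*, a Notch target used in arteries and in many epithelia, was at 10.74, 11.09 and 10.82 in the OV pools, 9.99, 10.14 and 10.10 in the periotic pools and 9.76, 9.85 and 10.03 in the embryo-minus-otic pools. It was higher in OV by 0.81 and 1.00 (limma, *q* = 5.67e-05 and 6.03e-06). Between the other groups, *Etv2* (listed as *Etsrp71*), an ETS factor of early endothelial and blood precursors, was lower in periotic tissue than in embryo-minus-otic, with a difference of -1.47 (limma, *q* = 1.42e-05). *Gata2*, a factor of blood precursors and endothelium that neurons also use, was higher in periotic tissue by 0.73 (limma, *q* = 0.0081).

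*Cdh5* and *Cldn5* encode the proteins most closely tied to endothelial junctions, VE-cadherin and claudin-5. *Cldn5* was at 8.38, 8.16 and 8.24 in the OV pools, 8.999, 9.002 and 8.665 in the periotic pools and 9.060, 9.024 and 9.004 in the embryo-minus-otic pools. It was lower in OV, with differences of -0.63 (limma, *q* = 4.8e-04) and -0.77 (limma, *q* = 6.9e-05), with no overlap. The *Cdh5* probe, on chromosome 8, was at 6.36, 6.31 and 6.26 in the OV pools, 6.67, 6.26 and 6.55 in the periotic pools and 6.55, 6.21 and 6.61 in the embryo-minus-otic pools. Its groups overlapped, and differences of -0.18 and -0.14 were not called (limma, *q* = 0.49 and 0.58). Among junction genes, then, *Pecam1*, *Esam1* and *Cldn5* passed the test and *Cdh5*, a dim probe above background on 8 arrays, did not.

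Vessels carry blood, and erythroid genes, those of red blood cells, moved in the same direction in the comparisons with OV. Of 9 probes for erythroid genes, 8 were called lower in OV than in periotic tissue and 9 lower than in embryo-minus-otic, with or without OV pool 1. The summed intensity of the erythroid probes ran from 16520 to 40660 over the OV pools, from 64280 to 74810 over the periotic pools and from 85110 to 92060 over the embryo-minus-otic pools. All 8 genes of that list were above background on the arrays of each group, apart from *Epor* on 2 OV arrays. The largest called differences were -1.65 for *Hbb-bh1*, an embryonic globin, against periotic tissue and -2.07 for *Hba-a1*, an alpha globin, against embryo-minus-otic, and were -1.99 and -2.35 without OV pool 1. In periotic tissue 2 of 9 probes were called lower than in embryo-minus-otic, led by *Klf1*, the erythroid transcription factor, at -0.82.

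Among the OV pools the erythroid list, taken as its mean after each probe was centred over the 9 arrays, was at -0.47, -0.79 and -1.44 in pools 1, 2 and 3. The member probes taken in the same way were at -0.21, -0.36 and -0.38. OV pool 1 was thus the highest of the OV pools for both lists and, as given above, for *Myl4*. The part that red blood cells had in the member differences was not tested.

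Of 20 probes for other blood cell and platelet genes, 5 were called lower in OV than in periotic tissue and 3 lower than in embryo-minus-otic (5 and 2 without OV pool 1), and 2 were called higher in periotic tissue than in embryo-minus-otic. The defining genes *Ptprc* of white cells and *Itga2b* of platelets were above background on no array. *Pf4* (listed as *Cxcl4*), a platelet and megakaryocyte gene, had the largest called difference, with -1.04 and -1.16 in the comparisons with OV. *Laptm5*, a blood cell lysosomal gene, was higher in periotic tissue than in embryo-minus-otic by 0.47 (limma, *q* = 0.0071). The summed intensity of this list ran from 1598 to 1660 over the OV pools, from 2109 to 2266 over the periotic pools and from 1923 to 2022 over the embryo-minus-otic pools, and its part in the member differences was not tested either.

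Other tissues were also spread unevenly, as the plot of lists by array shows. Mural cell genes, which mark the pericytes and smooth muscle around vessels, had none of 13 probes called between OV and periotic tissue (limma; 0 of them at an unadjusted p under 0.05) and 4 called lower in OV than in embryo-minus-otic. Without OV pool 1, 1 probe was called lower in OV than in periotic tissue, of *Acta2* at -0.59 (limma, *q* = 0.0168), and 4 lower than in embryo-minus-otic. *Acta2*, smooth muscle actin that early heart muscle also makes, had the largest of these differences at -3.33, and the pericyte genes *Rgs5*, *Cspg4*, *Kcnj8* and *Abcc9* were above background on no array. The endocardium and heart muscle list had 1 of 14 probes (*Npr3*, -0.39) called lower and 2 higher in OV than in periotic tissue, the latter both of *Nfatc1*, at 0.64 and 0.49. It had 6 called lower than in embryo-minus-otic, led by *Myl4* at -5.28 (-5.87 without OV pool 1). Without that pool 3 probes of this list, in place of 2, were called higher in OV than in periotic tissue, all of them *Nfatc1* probes. The heart muscle genes were not called in that comparison with or without the pool. *Myl4* differed from periotic tissue by 0.39 with it and -0.23 without it, and *Myl7* by 0.34 and 0.082. In periotic tissue 4 mural and 6 heart probes were called lower than in embryo-minus-otic, led by *Acta2* at -2.99 and *Myl4* at -5.66. The summed intensity of the mural probes ran from 819.1 to 876.5 over the OV pools, from 847.1 to 901.2 over the periotic pools and from 2297 to 2482 over the embryo-minus-otic pools. That of the heart probes ran from 918.2 to 1348 over the OV pools, with pool 1 the highest, from 869.2 to 896.2 over the periotic pools and from 9186 to 10300 over the embryo-minus-otic pools.

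Mesenchyme genes had 1 of 10 probes called lower in OV than in periotic tissue (*Lum*, -0.88) and 9 lower than in embryo-minus-otic (led by *Lum*, -1.41), with 8 lower in periotic tissue than in embryo-minus-otic (led by *Pdgfra*, -1.10). Neural tube genes had 6 of 9 probes called lower in OV than in periotic tissue and 4 lower than in embryo-minus-otic, both led by *Olig3* at -2.77 and -1.02. The mesenchyme and neural counts against OV were as large without OV pool 1. The summed mesenchyme intensity ran from 1497 to 1739 over the OV pools, from 1661 to 2031 over the periotic pools and from 2937 to 3486 over the embryo-minus-otic pools, and the summed neural intensity from 1178 to 1229, from 4468 to 5595 and from 1703 to 1864. What part the makeup of each dissection had in the endothelial values was not tested.

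**Figure D4:**
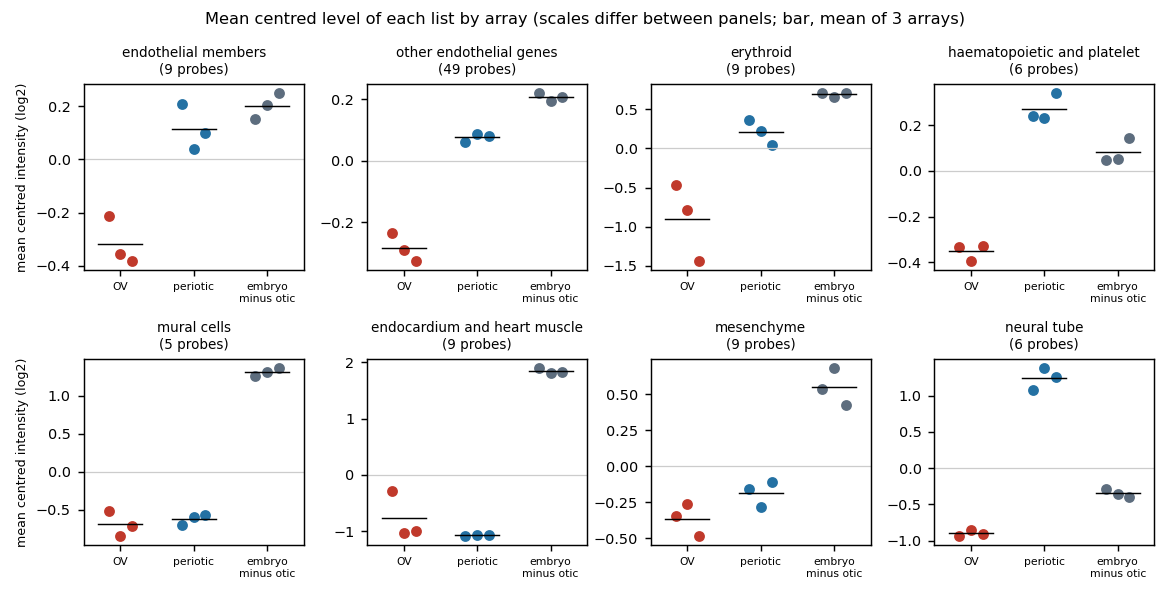
Mean over the probes of each list of the normalized log2 intensity after centring each probe on its own mean over the 9 arrays (y axis; scales differ between panels), for the 3 groups of arrays (x axis), over probes above background throughout 1 group or more; the line is the mean of 3 arrays. This choice lets some probes in only through a group in which they are high. The endothelial member panel lies between -0.38 and -0.21 in OV and between 0.039 and 0.25 elsewhere, with periotic tissue and embryo-minus-otic overlapping. The erythroid panel is also lowest in OV but has periotic tissue below embryo-minus-otic on every array. The mural and heart panels are high in embryo-minus-otic.

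The probes most like the members were sought among 9759 probes above background on all arrays, by the Euclidean distance over the 9 arrays between centred log2 values and the median profile of the 9 member probes above background throughout 1 group or more. The nearest 5 were *Sgcb* at 0.197, *Pard6a* at 0.217, *Copz2* at 0.236, *F2rl3* at 0.243 and *Ccm1* at 0.248. The member probes themselves lay at 0.29 (*Flt1*) to 0.83 (*Emcn*). *F2rl3* encodes the thrombin receptor PAR4 and *Ccm1* is the older name of *Krit1*, a gene of vessel stability, whereas *Sgcb*, *Pard6a* and *Copz2* encode a sarcoglycan, a cell polarity protein and a coatomer subunit. *Sgcb*, the nearest, was at 7.33, 7.25 and 7.34 in the OV pools, 7.98, 7.70 and 7.70 in the periotic pools and 7.76, 7.76 and 7.68 in the embryo-minus-otic pools. The 9 arrays allow many profiles of this simple kind, and likeness here is only that of levels.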

How the data were processed

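RNA of 9 E10.5 pools was measured on Illumina MouseRef-8 v2.0 arrays. As deposited, each array holds an average signal per probe, an intensity that the authors had not normalized between arrays, and a detection p-value against its negative controls. Whether a background was subtracted is not given in the sources used here. Groups came from the tissue named in each sample's title, and all columns of values were matched to a sample.

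Signals were log2 transformed and quantile normalized, the steps the study's methods name, over these 9 arrays only. One model of 3 groups over the 25697 probes was made in limma 3.58.1 (R 4.3.3), and the 3 comparisons were adjusted by Benjamini-Hochberg. The limma fit alone was tested on simulated data, with arrays drawn independently. The log2 and normalization steps were not tested in this way. With 3 arrays per group, their number limits the precision of every mean.

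The members, gene lists and tests were chosen with earlier results of these data known. Named genes were all members, the fixed ligands, co-receptors and junction genes, the largest called change of each list in each direction, and the 5 nearest probes. A few others, said to be so where shown, were chosen after their values were seen. Older array symbols were matched to present ones through RefSeq names or the deposited definitions. The alternatives were neqc (offset 16), median or no normalization, only probes above background, a fit of 2 groups only, an intensity trend, array weights, replicate number as a block, each array left out, a test against a 1.5-fold change, probes averaged by gene, a detection threshold of 0.05 and, chosen after seeing the data, the gene lists without OV pool 1 and *Esam1* against a 1.5-fold change.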

Additional observations from a re-analysis of the deposited data

How the results depend on the processing

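The count of called member probes was 4 of 14 for OV against periotic tissue, 6 for OV against embryo-minus-otic and 0 for periotic tissue against embryo-minus-otic. Median normalization gave 2 and 1 in the comparisons with OV, and the limma test against a 1.5-fold change gave 0 and 0, with 0 and 1 at an unadjusted p under 0.05. The cause of the first was not tested; the second asks for a larger change by construction. Over all probes, median normalization called 670 lower and 1472 higher in OV than in embryo-minus-otic, against 1417 and 1513. Leaving out each array in turn gave 4 to 5, 6 to 7 and 0, and kept every call. The other alternatives over probes gave 3 to 6 and 4 to 8 (fewest with no normalization, most with array weights), the fit of probes averaged by gene gave 3 and 4 of 9 genes, and none gave a call between periotic tissue and embryo-minus-otic. No called difference changed sign under any alternative. With the replicate number as a block the counts were 4, 6 and 0, and the called probes were the same. Same-numbered arrays of different groups had deviations correlated between 0.008 and 0.182, over 0.1 for 5 of 9 pairs, against at most 0.049 for differently numbered arrays, and 7 of 9 arrays correlated best with their own number. This hints that the numbers pair the pools, but no label says so and not every pair passed 0.1, so the fit without the block was kept. At a detection p under 0.05, between 9 and 11 of the 14 member probes were above background on each array, against 7 to 10 at 0.01. Probes near background limit what *Kdr*, *Flt4* and *Tie1* can show.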
